A study of Homo sapiens with 4 samples.

Results

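First introns longer than 150 bp and up to 10000 bp were examined in cytoplasmic RNA of SUM159, a human cell line established from a triple-negative breast cancer. Cultures had been given H3B-8800, a small molecule that inhibits the spliceosome, or its solvent DMSO, each for 12 hours, with 2 libraries from separate biological replicates per treatment; no dose is given in the sources used here. The RNA was polyA-selected. Each gene was represented by 1 transcript, and an intron counted as first when it came first in transcription order in a gene with at least 2 listed introns. Of 142206 introns with both read counts, 14312 were first introns, and 9965 of these were over 150 and up to 10000 bp long. The rule used position and length only, and no read count. The same length range held 91035 internal and 12010 last introns.

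An intron is removed in a pair of cutting and joining steps at its 5′ splice site, its branch point and its 3′ splice site. The branch point is recognised by U2 snRNP through its SF3b complex, in which SF3B1 and PHF5A form the pocket that H3B-8800 and related compounds bind. First introns lie next to the cap and the promoter, are often long and GC-rich at their 5′ end, and may sit within the 5′ untranslated region (5′ UTR), where retention leaves the coding sequence whole. Intron-containing RNA is mostly kept in or degraded in the nucleus, so a cytoplasmic fraction normally holds few reads inside introns.

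For each intron, reads inside it are called intronic and reads that span it are called spliced. The first introns had a median length of 1891 bp, with quartiles of 769 and 4064 bp. The annotation placed 2303 of them in the 5′ UTR and 7590 between coding exons. No annotated exon of either strand lay inside 5339 of them (53.6%), which are called exon-free below. The others can collect reads from exons of other transcripts. Intronic reads were scarce: 4859 of the 9965 introns had none in any library. In single libraries, 63.3% and 61.3% of the introns had no intronic read under H3B-8800, against 66.8% and 66.7% under DMSO. All first introns together held 81092 and 91668 intronic reads under H3B-8800 and 57542 and 58196 under DMSO, and the 100 introns with the most reads held 38.9% of these.

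The 4 library totals lay between 58000000 and 64000000 reads. Among marker genes, the hormone receptor genes ESR1 and PGR had 0 spliced reads in every library, whereas VIM had 110 to 152 CPM (spliced reads per intron, scaled to the library total). The luminal genes ERBB2 and GATA3 had 0.11 to 0.68 CPM. Other mesenchymal or basal genes stood far below VIM. CD44 and SNAI2 had 2.09 to 4.48 CPM, AXL had 0.67 to 1.84, and KRT5 and KRT14 were below 0.03. The epithelial genes KRT8 and KRT18 were present at 4.60 to 16.54 CPM, while EPCAM and CDH1 were below 0.03. The T cell gene CD3E had 0. The chi-square per degree of freedom between replicates was 2.39 under H3B-8800 and 2.20 under DMSO, or 1.19 and 1.10 with every count halved, since both mates of a pair may have been counted. The labels call them separate biological replicates, and all 4 libraries were kept as separate samples.

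Sequences of introns on both sides of the result are shown first, to be read beside the values further on. They are limited to introns that lie whole inside an exon of another GENCODE transcript on GRCh38, because no genome sequence was used. The 5′ splice sites are written with the first 6 bases of the intron in capitals after the last 3 exon bases. The first 4 introns had a higher intronic-to-spliced ratio under H3B-8800, the next 3 a lower one, and for the last 3 the change did not pass.
MRPS7 5′ splice site: aggGTGAGA
GUK1 5′ splice site: cccGTGAGT
RPL10A 5′ splice site: gagGTGAGT
RPS25 5′ splice site: atgGTAAGC
SSR4 5′ splice site: cagGTAGCG
RPL37A 5′ splice site: atgGTGAGT
RNASEK 5′ splice site: ttgGTGAGG
RPL12 5′ splice site: tcgGTGCGT
RPL28 5′ splice site: gagGTGAGC
RPL39 5′ splice site: atgGTAAGT

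The 3′ ends of the same introns hold the pyrimidine-rich tract and the closing AG, in capitals, that U2AF binds before SF3b settles on the branch point. The last 30 bases of each intron are given in the same order.
MRPS7 3′ end: tgcctgcctcctcctttccccccctcccAG
GUK1 3′ end: cccccgatgggtgacaggtctctctgctAG
RPL10A 3′ end: cctgagcgccctgtcgcttctctcccgcAG
RPS25 3′ end: cctggttgcattcccgctgccctcctacAG
SSR4 3′ end: tacccaggcatctctccctcttccccgcAG
RPL37A 3′ end: atcactggtttctcccttcactctaaacAG
RNASEK 3′ end: ttcaacagtctacccattccccttttccAG
RPL12 3′ end: gcacagacactaactcttcttttcccccAG
RPL28 3′ end: gacgctttccctgtgcccgtttccccgcAG
RPL39 3′ end: ttgtctaaattgattgcattttcttcccAG

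Of the 20 bases before the AG, 20 were pyrimidines in MRPS7, 11 in GUK1 and 16 in RPS25, all with a higher ratio. The count was 18 in SSR4 and 16 in RPL37A, with a lower ratio, and 17 in RPL12. RPL10A and RPL37A shared the same 6 intron bases at the 5′ splice site, and their ratios moved in opposite directions. For introns without such sequence, the spliced joint itself marks the position; the last 15 bases of the first exon are in capitals in 3 introns whose ratio was much higher under H3B-8800.
SHC1 joint: TCCTACTTGGTTCGGtacatgggttgtgtg
ATAD3B joint: AGCTGGAGCACTCGCgttacgccaaggagg
DVL1 joint: GGACCAGGACTTCGGggtggtgaaggagga

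Exon-free first introns held more intronic reads relative to spliced reads after H3B-8800. Summed over the 5339 introns, there were 4.43 and 4.72 intronic reads per 100 spliced reads under H3B-8800, against 2.02 and 2.04 under DMSO. No H3B-8800 library overlapped a DMSO library, and the ratio of the group means was 2.25 ± 0.101 (SD, n = 2 each). With 2 libraries against 2, the exact two-sided permutation test cannot go below p = 0.33, which it gave here. A single intron, that of TMSB10, held 16.1% of these reads, and without it the ratio of the means was 2.08. Over all 9965 introns, those with annotated exons included, the ratio of the means was 1.66.

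The ratio of H3B-8800 to DMSO was smaller than in introns at other positions. Summed over exon-free internal introns of the same length range there were 5.30 and 5.39 intronic reads per 100 spliced reads under H3B-8800 and 2.04 and 1.98 under DMSO, a ratio of 2.66 ± 0.0636 (SD, n = 2 each). Exon-free last introns had 8.06 and 8.17 under H3B-8800 and 2.12 in each DMSO library, a ratio of 3.82 ± 0.0357 (SD, n = 2 each). These sums are not scaled by length; the median lengths were 1804 bp for first, 1385 bp for internal and 1332 bp for last introns. HFM1 held 19.95% of the reads of the internal introns, and without its intron their ratio was 2.88.

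The order of positions was the same in each of 4 length classes. In introns of over 300 to 1000 bp the ratio of H3B-8800 to DMSO was 2.25 in first, 3.58 in internal and 4.11 in last introns. At over 1000 to 3000 bp it was 2.09 in first, 3.15 in internal and 4.05 in last introns. At over 3000 to 10000 bp it was 1.96 in first, 2.20 in internal and 2.86 in last introns. The shortest class, up to 300 bp, had a ratio of 3.42 in first, 4.14 in internal and 6.26 in last introns. Here the TMSB10 intron held 83.9% of the first-intron reads, and without it the ratio of first introns was 2.14. The most-read internal intron, of TIMP1, held 6.71%, and without it the internal ratio was 3.88. FTL held 38.4% of the last-intron reads, and without it the last-intron ratio was 4.97. Without TMSB10, the ratio of first introns therefore lay between 1.96 and 2.25 in every length class. That of internal introns, with no intron left out, lay between 2.20 and 4.14. At the lower edge of the length rule, exon-free first introns of over 100 to 150 bp had a ratio of 6.88 (222 introns). Without the intron of WDR83OS, which held 29.9% of their reads, it was 5.46. Those of over 150 to 200 bp had a ratio of 2.10 (148 introns), or 1.80 without KNSTRN, which held 21.9% of their reads. At the upper edge the ratio was 1.59 for over 8000 to 10000 bp (255 introns) and 1.49 for over 10000 to 12000 bp (188 introns).

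**Figure D1:**
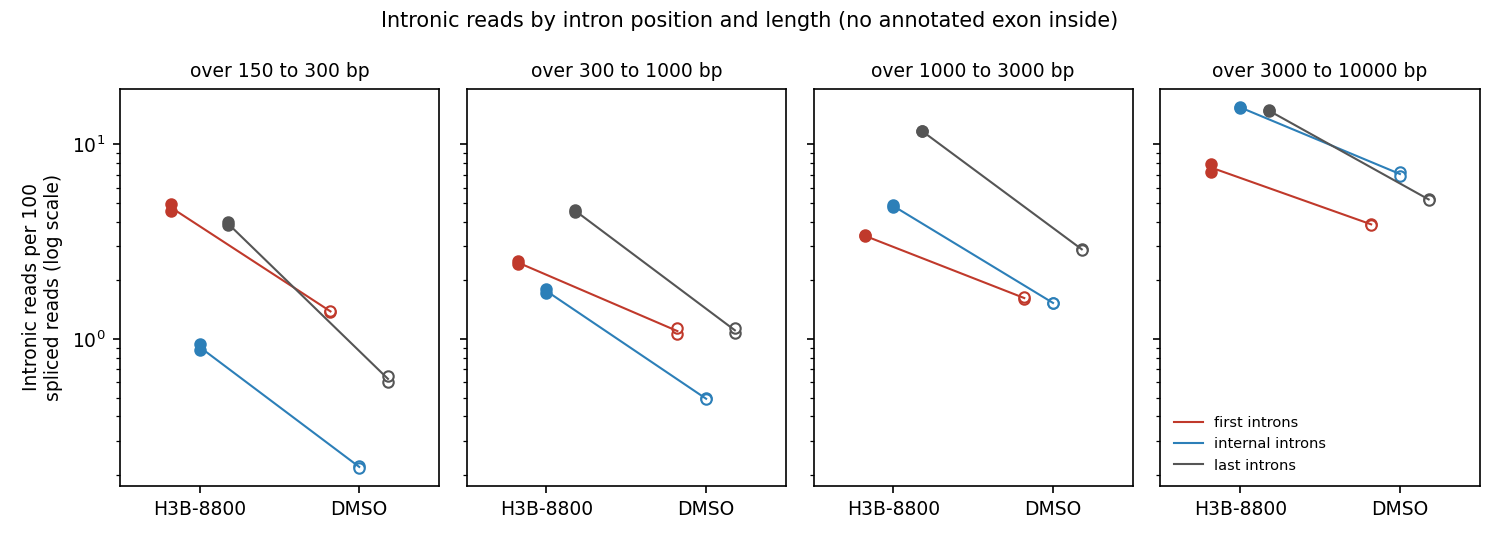
Intronic reads per 100 spliced reads (log scale) summed over exon-free first, internal and last introns, in 4 length classes. Each point is a library, filled for H3B-8800 and open for DMSO, and lines join the group means. The line of first introns is the least steep in each panel, and in the shortest class it includes TMSB10, which held 83.9% of the first-intron reads.

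The same order was seen within genes. In 4187 genes with an exon-free first intron and at least 1 exon-free internal intron in the length range, the first introns had 4.32 and 4.58 intronic reads per 100 spliced reads under H3B-8800 and 2.21 and 2.25 under DMSO, a ratio of 1.99. The internal introns of these genes had 5.07 and 5.24 under H3B-8800 and 2.03 and 2.05 under DMSO, a ratio of 2.53. On the log2 scale, first over internal was -0.23 and -0.20 under H3B-8800 and 0.12 and 0.14 under DMSO. In these sums, not scaled by length, first introns held the higher ratio in both DMSO libraries and the lower one in both H3B-8800 libraries. The difference was -0.34 with a pooled SD of 0.0192, and the exact permutation p was 0.33, the smallest that 2 against 2 libraries allow. Median lengths were 1937 bp for these first and 1283 bp for these internal introns. ROS1 held 7.90% of the internal-intron reads, and without its intron the internal ratio was 2.82.

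Against last introns the gap was wider. In 3301 genes with both, first over last was -0.94 and -0.88 on the log2 scale under H3B-8800 and -0.06 and -0.11 under DMSO, a difference of -0.83 with a pooled SD of 0.0369 and an exact permutation p of 0.33. The ratio of H3B-8800 to DMSO was 2.27 in the first and 4.03 in the last introns of these genes. TMSB10 held 25.5% of the first-intron reads here, and without it the first-intron ratio was 1.99. FTL held 6.41% of the last-intron reads, and without it the last-intron ratio was 3.87.

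Introns were then tested one by one, with the ratio of intronic to spliced reads fitted over all 9937 introns of the series that averaged 10 or more reads of both kinds. Of these, 56.5% passed as higher and 2.88% as lower under H3B-8800 (edgeR's quasi-likelihood test at a Benjamini-Hochberg adjusted p below 0.05), with a median log2 change of 1.62. Among the first introns 1038 could be tested; 475 passed as higher, 32 as lower and 531 did not pass, with a median log2 change of 1.06. The lower ones numbered 13 when replicate 1 of H3B-8800 was left out, 17 when its replicate 2 was, and 19 when DMSO replicate 2 was. The 45.8% of tested first introns called higher stood below the share of all introns, while the share called lower, 3.08%, was close to it. An intron whose reads are many only under H3B-8800 can reach the mean of 10 through that group alone, so these counts describe the tested introns and not all 9965. Of the tested introns, 5 had no intronic read in either DMSO library. Internal introns passed as higher in 3094 of 4922 tested and as lower in 70 (1.42%), with a median of 1.85. Last introns passed as higher in 1181 of 1693 and as lower in 20 (1.18%), with a median of 2.07. Both lower shares were below the 3.08% of first introns.

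**Figure D2:**
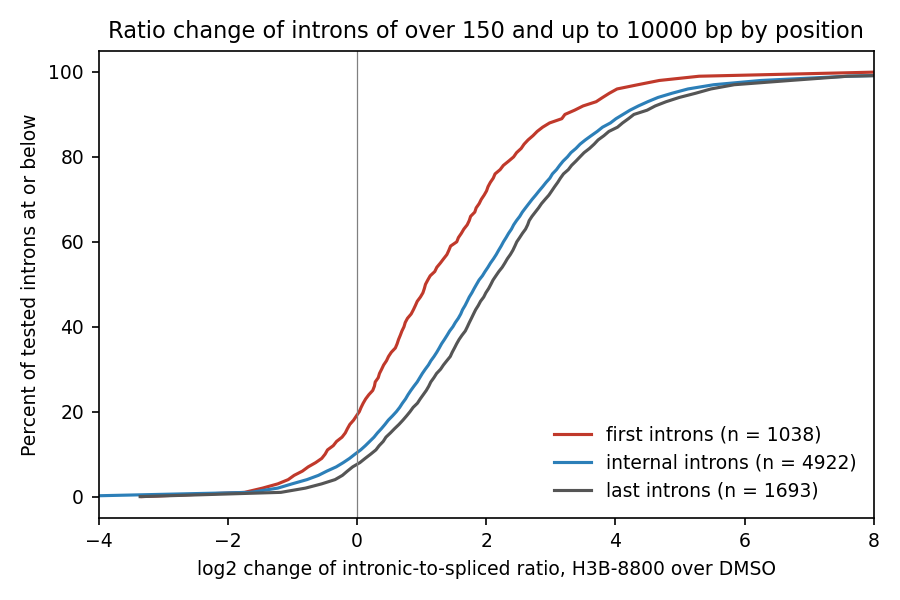
Cumulative percent of tested introns of over 150 and up to 10000 bp (vertical axis) by the log2 change of their intronic-to-spliced ratio, H3B-8800 over DMSO (horizontal axis). The curve of the 1038 first introns lies left of those of 4922 internal and 1693 last introns over most of its range; the medians are 1.06, 1.85 and 2.07.

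The counts were also taken by annotation, place and length, with no test between the classes. Among 217 tested exon-free first introns, 108 passed as higher and 9 as lower, and the median change was 1.43; of all 3229 exon-free introns tested, 62.7% were higher and 1.89% lower. In the 5′ UTR 101 of 258 tested introns passed as higher, with a median of 0.88. Between coding exons 374 of 777 did, with a median of 1.14. By length, 43 of 68 tested first introns of up to 300 bp were higher, with a median of 1.75. At over 300 to 1000 bp 79 of 191 were higher and 10 lower, with a median of 0.92. At over 1000 to 3000 bp 164 of 322 were higher and 8 lower, with a median of 1.32, and at over 3000 to 10000 bp 189 of 457 were higher and 14 lower, with a median of 0.98.

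The 2 parts of the ratio were also looked at apart. Of the 475 introns with a higher ratio, 361 also passed as higher in intronic reads scaled to the library totals, 2 as lower, and 112 did not pass. Their median log2 change was 1.80 for intronic reads and -0.42 for spliced reads, both scaled to the library totals, and 367 of the 475 had fewer scaled spliced reads under H3B-8800. These introns were chosen for a higher ratio, which itself favours more intronic and fewer spliced reads; of the 531 that did not pass, 304 had fewer scaled spliced reads, with a median log2 change of -0.09. These scaled counts are shares of libraries from a single cell line, so they do not measure cell number or RNA per cell. Of the 32 introns with a lower ratio, 17 passed as lower in intronic reads and 25 had more scaled spliced reads. In the test of intronic reads alone, 48.2% of all 12013 introns tested passed as higher and 5.74% as lower. Among the 1228 first introns tested there, 471 were higher and 77 lower, with a median log2 change of 0.72. That test depends on the scaling: with TMM scaling on the intronic reads themselves, 169 were higher and 284 lower. When replicate 1 or 2 of H3B-8800 was left out, edgeR called 0 first introns in either direction, although 328 and 311 had a higher level at an unadjusted p below 0.05, and DESeq2 called 136 to 229 as higher when 1 library was left out. The ratio test does not depend on scaling between libraries.

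The 10 exon-free introns with the smallest adjusted p among those raised span signalling, mitochondrial and cytoskeletal genes. TMSB10 encodes a thymosin that binds monomeric actin. Its first intron of 284 bp in the 5′ UTR (chr2:84905719-84906002, plus strand) had 3216 and 3821 intronic reads under H3B-8800, against 916 and 959 under DMSO, beside 51573 and 58405 spliced reads under H3B-8800 and 51961 and 52530 under DMSO. The ratio was thus 6.24 and 6.54 intronic reads per 100 spliced reads under H3B-8800 and 1.76 and 1.83 under DMSO, and its log2 change was 1.83 (SE 0.158, edgeR adjusted p = 4.2e-06). Here the spliced reads hardly differed between the groups, and the intronic reads rose about 4-fold (log2 change 2.00 against the library totals).

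SHC1 links receptor tyrosine kinases to RAS signalling. Its first intron (chr1:154969449-154970031, minus strand, 583 bp, between coding exons) had 96 and 102 intronic reads under H3B-8800 and 4 in each DMSO library. Spliced reads were 165 and 171 under H3B-8800 and 213 and 222 under DMSO. An intron that had few reads in DMSO cytoplasm thus reached 58.2 and 59.6 reads per 100 spliced reads under H3B-8800, against 1.88 and 1.80 under DMSO (log2 change 4.96, SE 0.449, edgeR adjusted p = 6.0e-06).

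ATAD3B encodes an ATPase of the mitochondrial inner membrane. Its first intron (chr1:1472090-1477273, plus strand, 5184 bp) had 79 and 108 intronic reads under H3B-8800 and 12 and 9 under DMSO, while its spliced reads were 8 in each H3B-8800 library and 48 and 37 under DMSO. Intronic reads outnumbered spliced reads in both H3B-8800 libraries and in neither DMSO library. The log2 change of the ratio was 5.52 (SE 0.565, edgeR adjusted p = 1.4e-05). The spliced reads were fewer across the whole gene: its other introns had 591 and 745 under H3B-8800 and 2476 and 1912 under DMSO, and the share of the first joint did not pass as changed (edgeR adjusted p = 0.411).

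DVL1 is a relay of WNT signalling. Its first intron of 6137 bp (chr1:1342759-1348895, minus strand) had 124 and 166 intronic reads under H3B-8800 and 16 and 30 under DMSO, beside 57 and 71 spliced reads under H3B-8800 and 176 and 157 under DMSO (log2 change 4.04, SE 0.423, edgeR adjusted p = 1.6e-05). Its other introns also had fewer spliced reads, 964 and 1132 under H3B-8800 and 2457 and 2541 under DMSO (edgeR adjusted p = 0.78 for the share of the first joint). ACOT9, a mitochondrial acyl-CoA thioesterase, had 106 and 165 intronic reads under H3B-8800 and 6 and 13 under DMSO, with spliced reads of 185 and 190 against 212 and 192. In CDK16, a kinase activated by cyclin Y, 25 and 34 intronic reads under H3B-8800 stood against 4 in each DMSO library, and 145 and 166 spliced reads against 339 and 348.

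In the remaining 4 the groups also did not overlap. NDUFB7, a subunit of respiratory complex I, had 150 and 159 intronic reads under H3B-8800 and 44 and 38 under DMSO. MRPL58, which releases stalled peptides on the mitochondrial ribosome, had 102 and 131 under H3B-8800 and 33 and 30 under DMSO. INPP1, a phosphatase of inositol phosphates, had 51 and 45 under H3B-8800 and 8 and 6 under DMSO. KNSTRN, a protein of the mitotic spindle and kinetochore, had 69 and 100 under H3B-8800 and 24 and 31 under DMSO in an intron of 183 bp. Over these 10 introns the log2 change of the ratio ran from 1.83 in TMSB10 to 5.52 in ATAD3B.

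**Figure D3:**
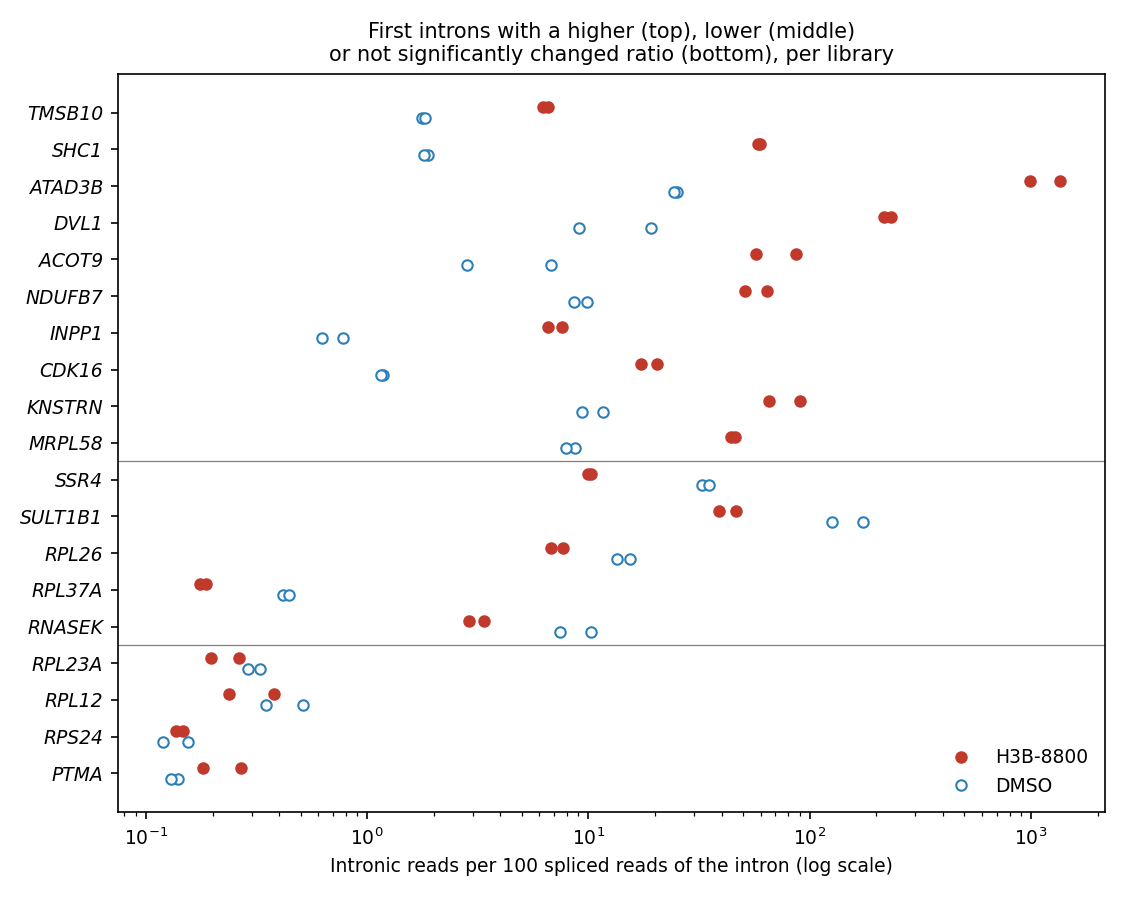
Intronic reads per 100 spliced reads of single first introns (log scale), a point per library, filled for H3B-8800 and open for DMSO. The groups are apart in the 10 raised introns (top) and, the other way round, in the 5 lowered ones (middle), where SSR4 had 9.90 and 10.2 under H3B-8800 and 32.5 and 35.0 under DMSO; in RPL12 and RPS24 (bottom) they overlap.

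The 5 first introns described next, from those lowered with the smallest adjusted p, all carried an annotated exon of their own strand inside. This was not particular to lowered introns. An annotated exon of either strand lay inside 71.9% of the 32 lowered first introns, 77.3% of the 475 raised ones and 81.2% of the 531 that did not pass. SSR4, a subunit of the translocon-associated complex that aids entry into the endoplasmic reticulum, had 197 and 261 intronic reads under H3B-8800 and 535 and 549 under DMSO (chrX:153794755-153796433, plus strand). Its spliced reads were 1989 and 2554 under H3B-8800 and 1646 and 1570 under DMSO. The ratio fell by 1.74 on the log2 scale (SE 0.219, edgeR adjusted p = 5.6e-05), with fewer reads inside and more across the intron.

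Ribosomal protein genes were among them. RPL26 had 491 and 592 intronic reads under H3B-8800 and 939 and 1047 under DMSO (log2 change -0.998), and RPL37A 30 and 32 under H3B-8800 and 65 and 66 under DMSO (log2 change -1.25). RNASEK, a small membrane protein of the proton pump complex, had 32 and 43 under H3B-8800 and 117 and 86 under DMSO. SULT1B1, a cytosolic sulfotransferase, had 79 and 78 under H3B-8800 and 192 and 142 under DMSO in its 5′ UTR intron. Whether these reads came from the retained first intron or from the annotated exon inside it was not tested.

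Some first introns with very many spliced reads did not pass. RPL23A had 71 and 99 intronic reads under H3B-8800 and 100 and 85 under DMSO, beside 36056 and 37734 spliced reads under H3B-8800 and 30421 and 29310 under DMSO. RPS24 had 22 and 21 intronic reads under H3B-8800 and 17 and 22 under DMSO, and a log2 change of the ratio of 0.05 (SE 0.312). PTMA, a small acidic nuclear protein, had 16 and 25 under H3B-8800 and 16 and 15 under DMSO, with a log2 change of 0.74 (SE 0.355). RPL12 had 45 and 30 under H3B-8800 and 60 and 88 under DMSO, and a change of -0.48 (SE 0.295); without DMSO replicate 1 it was -0.74 and passed (edgeR adjusted p = 0.0487). In each of these 4 introns there were fewer than 0.6 intronic reads per 100 spliced reads in every library, so few reads of these introns were found under either treatment.

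First introns were then taken by gene group, with no test between groups and most groups below 10 tested introns; the shares to read their counts against are the 56.5% higher and 2.88% lower of all introns tested. Of 57 ribosomal protein genes with a first intron in the range, 45 were tested, and 23 were higher, 6 lower and 16 not passed, with a median log2 change of 0.77. RPL10A, of the large subunit, had 272 and 351 intronic reads under H3B-8800 and 40 and 34 under DMSO (log2 change 3.18). RPS25, of the small subunit, with 39591 and 41858 spliced reads under H3B-8800 and 38374 and 39612 under DMSO, had 78 and 75 intronic reads under H3B-8800 and 8 in each DMSO library. Besides RPL26 and RPL37A the lower ones included RPL29 (-1.43), RPS23 (-1.07) and RPL7A (-0.81). Members of 1 complex thus moved in both directions. Only 1 of the 45 introns was exon-free. Each of the other lists below had at most 2 exon-free introns among those tested, so most can collect reads from exons of other transcripts. An annotated exon of their own strand lay inside the first introns of EIF5A, HSPB1, ENO1, PSMD8 and TMSB4X, among others. Whether the reads came from the intron or from such an exon was not tested.

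Translation factors had 6 of 13 tested introns higher, with a median of 0.88. EIF5A, which helps ribosomes past proline-rich stretches, had 248 and 191 intronic reads under H3B-8800 and 60 and 42 under DMSO (log2 change 2.32, SE 0.279). EIF2B4, a subunit of the exchange factor of eIF2, had a log2 change of 4.27, and EEF1A1, the main elongation factor, one of 0.88. Chaperones had 4 of 7 higher, among them HSPB1, with 411 and 423 intronic reads under H3B-8800 and 148 and 188 under DMSO, and the chaperonin subunit CCT3, with 242 and 224 under H3B-8800 and 76 and 76 under DMSO.

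Glycolytic enzymes had 4 of 5 tested introns higher. ENO1, the enolase of glycolysis, had 311 and 354 intronic reads under H3B-8800 and 28 and 38 under DMSO at nearly equal spliced reads, 6546 and 6820 under H3B-8800 and 6849 and 6768 under DMSO (log2 change 3.35, SE 0.247, edgeR adjusted p = 1.5e-06). PGAM1, a step earlier, had 16 and 26 under H3B-8800 and 0 and 6 under DMSO, and no longer passed without H3B-8800 replicate 2. Proteasome subunits had 7 of 9 higher, with a median of 1.74; PSMD8, of the regulatory particle, had 30 and 28 under H3B-8800 and 4 and 2 under DMSO, and PSMA3, of the core, 37 and 64 under H3B-8800 and 11 and 9 under DMSO.

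Cytoskeletal genes had 5 of 7 higher, TMSB10 among them. TMSB4X, another abundant thymosin, had 313 and 407 intronic reads under H3B-8800 and 87 and 86 under DMSO in its 5′ UTR intron (log2 change 2.15, SE 0.224). The first intron of ACTB, beta-actin, also in the 5′ UTR, had 113 and 148 under H3B-8800 and 38 and 29 under DMSO (log2 change 1.93). ARPC3, of the actin-nucleating ARP complex, had 49 and 45 under H3B-8800 and 5 and 1 under DMSO (log2 change 4.37). VIM, at 2.08, did not pass.

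The targets of the compound and their partners gave few testable first introns. The first intron of PHF5A (454 bp) had 0 intronic reads in all 4 libraries, beside 231 and 265 spliced reads under H3B-8800 and 307 and 308 under DMSO; a count of 0 allows up to 3 reads. The first listed intron of SF3B1 is 10997 bp long and outside the length range. Of 17 first introns of SF3a, SF3b and U2 proteins in the range, 4 were tested and none passed in the edgeR ratio test; 0 of the 4 had an unadjusted p below 0.05 with edgeR, and 0 with DESeq2 or limma. SF1, the first branch point binder, had 31 and 47 intronic reads under H3B-8800 and 30 and 26 under DMSO (log2 change 0.61, SE 0.357), and SF3B3 had 32 and 29 under H3B-8800 and 21 and 39 under DMSO (log2 change 0.69, SE 0.578). The groups overlapped in SF3B3 and not in SF1.

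Other core spliceosome proteins had 5 of 8 higher, with a median of 2.04. SNRPC, of U1 snRNP, had 75 and 86 intronic reads under H3B-8800 and 20 and 11 under DMSO. PLRG1, of the PRP19 complex, had 25 and 43 under H3B-8800 and none in either DMSO library, at 39 and 47 spliced reads under H3B-8800 and 38 in each DMSO library. Set against a floor of 3 intronic reads over the DMSO group, its ratio was 20.03-fold higher. This floor takes reads as independent, although both mates of a pair may have been counted, so 20.03 is not a firm lower bound. PLRG1 reached the mean needed for testing through its H3B-8800 reads alone. Its selection thus favoured a large rise, and its size cannot be ranked against the list. SR and hnRNP proteins had 1 of 7 higher and 1 lower: HNRNPF had 45 and 74 under H3B-8800 and 3 and 16 under DMSO, and HNRNPA3 5 and 7 under H3B-8800 and 14 and 21 under DMSO. The call of HNRNPA3 was lost under 7 alternatives, among them leaving out either H3B-8800 library or DMSO replicate 2, with edgeR, DESeq2 or limma adjusted p up to 0.251.

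The smaller lists gave single introns. Of 39 DNA replication genes with a first intron in the range only 3 were tested: POLD2, a subunit of DNA polymerase delta, had 58 and 59 intronic reads under H3B-8800 and 15 and 22 under DMSO, ORC6, of the origin recognition complex, had 19 and 20 under H3B-8800 and 6 and 8 under DMSO, and both were higher. GINS1, of the replicative helicase, was lower at -1.92; its intronic reads were 14 and 29 under H3B-8800 and 19 and 24 under DMSO, while its spliced reads were 57 and 58 under H3B-8800 and 17 and 14 under DMSO. The lower ratio of GINS1 thus went with more spliced reads and not with fewer intronic reads. Among stress response genes ASNS, which makes asparagine, had 34 and 46 under H3B-8800 and 6 and 2 under DMSO, and SLC3A2, an amino acid transporter subunit, had 28 and 39 under H3B-8800 and 6 and 12 under DMSO. Among decay factors UPF3A, which acts in nonsense-mediated decay, did not pass at -0.63. ORC6 lost the call without H3B-8800 replicate 2, SLC3A2 without either H3B-8800 library or DMSO replicate 1, and both when introns with as little as 1 read of each kind were tested.

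**Figure D4:**
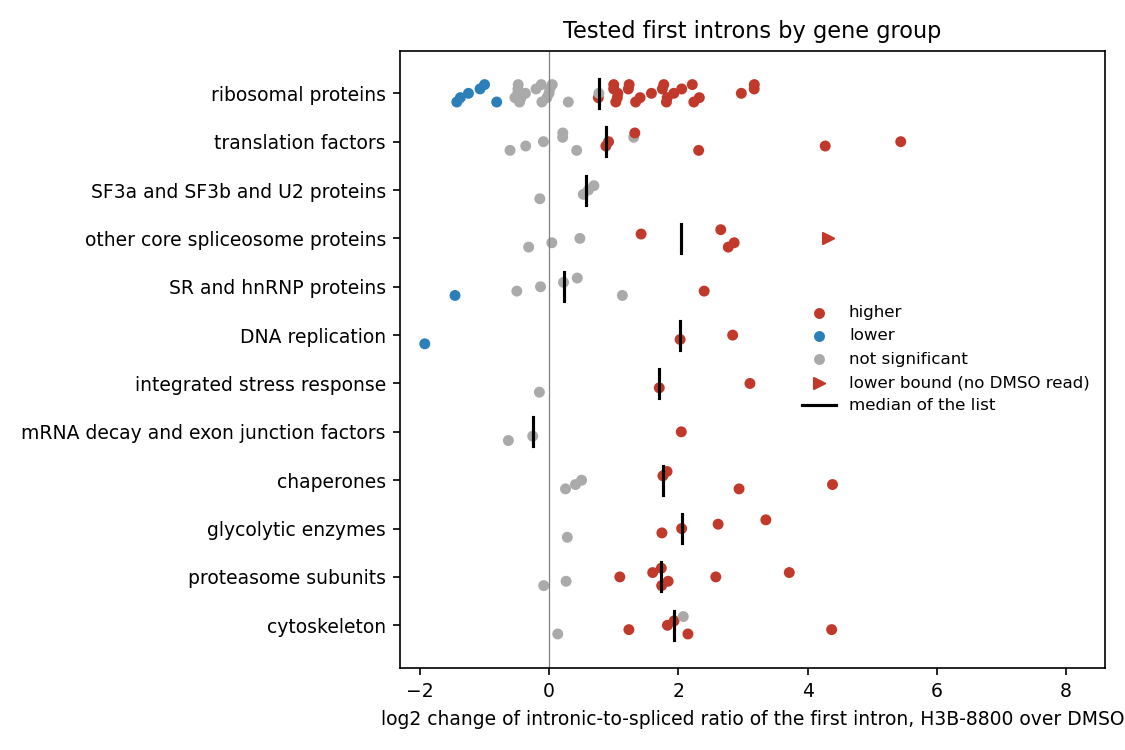
Log2 change of the intronic-to-spliced ratio of each tested first intron, H3B-8800 over DMSO, by gene group. Colours give the test's call and black bars the median. The triangle is PLRG1, which had no intronic DMSO read and is set against a floor of 3 reads. Ribosomal proteins spread from -1.43 to 3.18 with 23 higher and 6 lower, and proteasome subunits had 7 of 9 higher.

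Whether the first intron of a gene moved differently from its internal introns was tested directly, on the exon-free introns of genes that averaged 10 or more reads of both kinds at both positions. Only 71 genes could be tested, and in 5.63% of them the first intron gained more and in 21.1% less than the internal introns (edgeR's test of the difference, Benjamini-Hochberg adjusted p below 0.05). That is 4 genes with a larger and 15 with a smaller change at the first intron, and in 50 of the 71 the estimate was below 0. The median log2 change was 1.13 for the first and 1.83 for the internal introns, and the median difference was -0.61. Without H3B-8800 replicate 1 the counts were 1 larger and 6 smaller, without H3B-8800 replicate 2 they were 2 and 5, and without DMSO replicate 2 they were 2 and 8. When introns with annotated exons were kept, 568 genes could be tested, with 58 larger and 123 smaller.

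Among genes with a smaller change at the first intron, AGGF1, an angiogenic factor, had 9 and 10 intronic reads there under H3B-8800 and 28 and 20 under DMSO. Its internal introns had 91 and 69 under H3B-8800 and 18 in each DMSO library. The first and internal introns of this gene thus moved in opposite directions, with a difference of -4.21 (SE 0.711, edgeR adjusted p = 0.00027). ZNF335, a zinc finger gene, had 4 and 12 at the first intron under H3B-8800 and 15 and 25 under DMSO, and 36 and 81 at internal introns under H3B-8800 and 11 and 24 under DMSO (difference -4.59, SE 0.976). NFX1, a repressor that binds X-box promoters, had 16 and 12 at the first intron under H3B-8800 and 24 and 27 under DMSO, and 52 and 54 at internal introns under H3B-8800 and 12 and 24 under DMSO (difference -3.35, SE 0.824). The call of NFX1 was lost without either H3B-8800 library. All of these rest on low counts at the first intron.

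In the other direction, CAMLG, which helps insert tail-anchored proteins into the endoplasmic reticulum, had 34 and 14 intronic reads at the first intron under H3B-8800 and 2 and 4 under DMSO. Its only internal intron had 64 and 88 intronic reads under H3B-8800 and 176 and 178 under DMSO (difference 4.34, SE 0.948). Beside them stood 88 and 119 spliced reads under H3B-8800 and 53 and 88 under DMSO. Intronic reads of that internal intron thus outnumbered spliced reads in both DMSO libraries, and its ratio fell under H3B-8800. CEP170B had 39 and 57 at the first intron under H3B-8800 and 6 and 0 under DMSO. The call of CAMLG was lost without H3B-8800 replicate 1 and that of CEP170B without either H3B-8800 library or DMSO replicate 2.

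**Figure D5:**
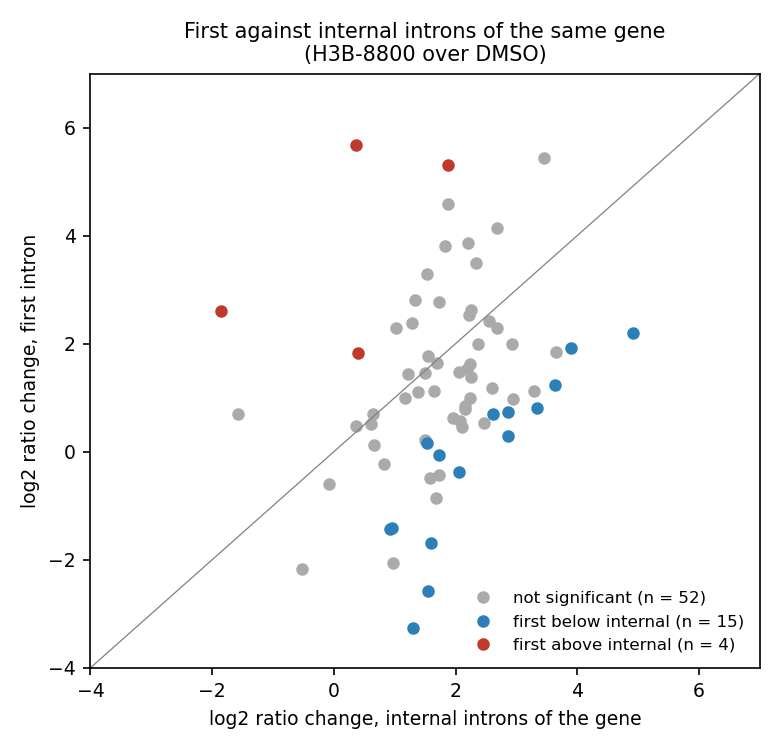
Log2 change of the intronic-to-spliced ratio, H3B-8800 over DMSO, of the first intron (vertical axis) against the summed internal introns (horizontal axis) of 71 genes; a point is a gene and the line marks equal change. Below the line lie 15 genes that passed as smaller at the first intron, and above it 4 that passed as larger.

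The use of the first splice joint was set against the rest of the transcript. Of all 6255 genes tested, 0.719% had more and 0.48% fewer spliced reads at the first intron relative to their other introns under H3B-8800 (edgeR's test, Benjamini-Hochberg adjusted p below 0.05). Among the 4433 genes with a first intron in the range, 31 were higher and 22 lower, shares near those of all genes, and the median log2 change was 0.01. At an unadjusted p below 0.05 there were 606 genes, and with the replicate number as a block 140 were higher and 93 lower. These counts also depended on single libraries: leaving out 1 library gave 7 to 68 higher and 3 to 64 lower, with the most called without DMSO replicate 1.

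For each direction, the 3 genes ranked first by adjusted p follow. PLAC8, a small cysteine-rich protein, had 773 and 758 spliced reads at its first intron under H3B-8800 and 323 and 406 under DMSO, beside 1172 and 1180 at its only other intron under H3B-8800 and 1374 and 1398 under DMSO. The first intron thus had 66.0% and 64.2% as many spliced reads as the other intron under H3B-8800 and 23.5% and 29.04% under DMSO (log2 change 1.31, SE 0.120, edgeR adjusted p = 0.0014). It had 0 and 2 intronic reads under H3B-8800 and none under DMSO, too few to be tested. CMC2, a mitochondrial protein, had 200 and 179 under H3B-8800 and 123 and 122 under DMSO at the first intron, and 577 and 607 under H3B-8800 and 1176 and 1077 under DMSO at the others (log2 change 1.56). RPL19, of the large ribosomal subunit, had a smaller shift of 0.54, with 8518 and 10435 spliced reads at the first intron under H3B-8800 and 6395 and 5878 under DMSO.

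EIF4B, which stimulates the cap-bound helicase eIF4A, had 13 spliced reads at the first intron in each H3B-8800 library and 80 and 83 under DMSO, although its other introns had 6772 and 7118 under H3B-8800 and 4170 and 4278 under DMSO (log2 change -3.35, SE 0.210, edgeR adjusted p = 0.00011). The same intron of 9976 bp had 46 and 24 intronic reads under H3B-8800 and 10 and 0 under DMSO. In all libraries the first joint of EIF4B had at most 1.94% as many reads as the sum over the other introns. MYL12B, a regulatory light chain of myosin, had 586 and 622 under H3B-8800 and 1324 and 1384 under DMSO at the first intron, and 4089 and 4277 under H3B-8800 and 4594 and 4717 under DMSO at the other (log2 change -1.01). SSNA1, a microtubule and centrosome protein, had 83 and 82 under H3B-8800 and 397 and 378 under DMSO at the first intron, and 191 and 274 under H3B-8800 and 229 and 246 under DMSO at the other (log2 change -2.19). In SSNA1 the intronic reads, 203 and 248 under H3B-8800 and 176 and 186 under DMSO, moved far less than the spliced ones.

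First introns were also summed by gene and sequence features, with no test between the classes. Exon-free introns after a first exon of low, middle and high GC content had ratios of H3B-8800 to DMSO of 2.27, 2.79 and 2.09, and that of the middle group was 2.27 without TMSB10. Introns after an exon ending in G had a ratio of 2.26, against 2.18 after another base. Genes with 2 to 4 introns had 2.55 (2.12 without TMSB10), and genes with 20 or more had 2.04. In the 5′ UTR the ratio was 2.47 (1.96 without TMSB10), against 2.10 between coding exons.

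The 5′ splice site could be read for 818 first introns, most of which carry annotated exons. GTGAG, read on the gene's strand as the first 5 bases, was the start of 342 of them (41.8%) and GTAAG of 173 (21.1%). Among those tested, 39 of 86 with GTGAG, 19 of 38 with GTAAG and 29 of 65 with other letters were higher. Summed reads gave ratios of 1.67 for GTGAG, 0.98 for GTAAG and 1.25 for the others, so sums and counts ordered the groups differently. Introns with GTAAG had 2.57 and 2.73 intronic reads per 100 spliced reads under H3B-8800 and 2.69 and 2.71 under DMSO, and the groups overlapped. Without the intron with the most reads of each group, the ratio was 1.74 for GTGAG and 0.978 for GTAAG. The branch point was searched as CTNAC on the gene's strand, 15 to 50 bases before the end of the intron, in 499 introns of known sequence. It was found in 118 of them (23.6%), and the summed ratio was 1.46 with and 1.43 without it. With more pyrimidines than the median before the AG the ratio was 1.41, and otherwise 1.46. Introns above the median GC content had 1.33, and the others 1.67.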

How the data were processed

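Each deposited file lists introns with 2 read counts and an RPKM value, without a header. The authors' counts were used as deposited: the first as intronic reads, and its difference from the second as spliced reads, a reading inferred from the values. The authors' RPKM (reads scaled to intron length and library total) served only to recover library totals. The submitters' processing notes name HISAT2 2.0.4 and 2 builds, hg38 and mm10. Libraries were strand-specific, per the labels' protocols; no source used here says whether counting used the strand, so overlapping and antisense genes are uncertain. Even numbers made up 70.9% to 72.3% of non-zero intronic counts, so mates of a pair may both be counted and reads are not independent molecules.

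Coordinates are 1-based on GRCh38 (hg38). GENCODE release 29 gave exons, places and sequences. Its introns matched 99.7% of the first introns, and symbols were found for 98.4% of genes. For 18 introns of 142224 no second count was given.

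Tests used edgeR 4.0.16 in R 4.3.3, fitted over all introns or genes with a mean of at least 10 reads, with Benjamini-Hochberg adjustment and a threshold of 0.05. The ratio test is the interaction of kind of read with treatment, with a term per library. DESeq2 1.42.0 and limma 3.58.1 were alternatives. All tests were tried on simulated data. There 200 of 9937 introns were changed, and the ratio test recovered 13.4% of 2-fold and 71.2% of 4-fold changes. In the real data 56.5% of introns passed as higher, so these shares do not give the power of the real test. For first against internal introns, 23 of 71 genes were changed, spread over several fold sizes, so each share rests on few genes. That test recovered 0% of 2-fold and 71.4% of 4-fold changes. Its median estimate for 2-fold changes was 1.34, above the true log2 value of 1. An intron or gene that did not pass may still have changed 2-fold. SEs are approximated from the F statistic.

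The introns and the 12 gene lists (441 entries) were chosen with earlier results of these data known. Named introns are the 10 raised exon-free and 6 lowered ones with the smallest adjusted p, up to 2 per list, the 4 with most spliced reads that did not pass, 3 per direction in the other tests, and PHF5A and SF3B1. Some genes this rule selects are not reported here. Other genes named, and the sequences shown, were chosen after their values were seen.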

Additional observations from a re-analysis of the deposited data

How the results depend on the processing

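The ratio test's 475 higher and 32 lower first introns became 262 and 6 when introns with as little as 1 read of each kind were tested (4885 first introns), 301 higher at a mean of at least 20 (539 tested), 108 and 9 among exon-free introns alone, and 16 lower with DESeq2; without 1 library the lower ones numbered 13 to 25. The 471 higher and 77 lower in intronic reads became 169 and 284 with TMM on the intronic reads. With DESeq2's own size factors they became 110 and 186. The median log2 change reversed to -0.32 and -0.30. Both scalings centre the change over all introns near 0, and which scaling is right was not tested. Against library totals the edgeR median was 0.72 for first introns and 1.13 for all introns. Lower first introns were 50 with TMM factors from spliced reads, 32 with DESeq2 on library totals and 50 with at least 1 read. Without 1 library edgeR gave 0 to 473 higher and 0 to 66 lower, with 0 without either H3B-8800 library, and DESeq2 (added after seeing the data) 136 to 229 and 15 to 21. For the joint test, 31 higher and 22 lower became 19 higher against the second intron only, 16 and 11 with DESeq2, and 6 and 4 with at least 1 read; without 1 library they were 7 to 68 and 3 to 64. Its median of 0.01 turned to -0.0037 against the second intron, and to -0.0029 and -0.0019 without H3B-8800 replicate 2 and DMSO replicate 1; at most it was 0.0278 without 1 library. First against internal introns, 4 larger and 15 smaller became 1 and 9 against the last intron (30 genes), 2 and 1 against the second (16 genes), 58 and 123 with exons kept, 9 smaller with DESeq2, 0 larger with at least 1 read (34 at an unadjusted p below 0.05 in edgeR), and 1 to 6 and 5 to 13 without 1 library. The summed ratio of 2.25 became 1.66 over all first introns, 2.11 without the 1% with most reads, 2.08 without TMSB10 (added after seeing the data), and 2.18 to 2.32 without 1 library. The cause of these shifts was not tested. The median over single introns was 0 in every library and gave no ratio.

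With a replicate block the ratio test gave 447 higher and 22 lower, intronic reads 417 and 58, the joint test 140 and 93, and first against internal introns 3 and 9. Same-numbered libraries did not deviate together (correlations of 0.0079 for the ratio and -0.0016 for intronic reads), so neither measure showed pairing by number. Spliced reads of the joint test were not checked in this way. Whether same-numbered libraries shared a batch was not tested. Of the values of single introns and medians under all alternatives, 485 kept direction and call, 26 lost the call and 1 gained it, 9 medians moved and 5 reversed. Depth limits the rest: 4859 first introns had no intronic read, and 1038 of 9965 could be tested.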
